A study of Mus musculus with 21 samples.

Results

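The EGF receptor family and its ligands were followed across 3 mouse cell lines in 10 genes: the receptors Egfr, Erbb2, Erbb3 and Erbb4 and the ligands Areg, Ereg, Hbegf, Tgfa, Btc and Nrg1. The genes were chosen by name, and all 10 matched a row of the gene count table, which holds 48440 rows. M6 and M27H4 are tumour lines of the mouse mammary gland, taken from animals in which the C3(1) promoter drives the SV40 T antigen (C3(1)SV40 TAg), while 3T3-L1 cells are mouse preadipocytes. In each line the study altered Esrp2-as, a noncoding RNA read from the strand opposite Esrp2, the gene of an epithelial splicing regulator. LNA antisense gapmers were used against it in 2 biological replicates of M6, whose 2 control replicates are labelled empty vector. In M27H4, Esrp2-as was overexpressed in 3 replicates against 3 empty vector controls, and in 3T3-L1 in 2 replicates against 2 empty vector controls. The labels give no clone, passage or culture day, so the p-values measure the spread between these samples, which may be technical in part.

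The 4 receptors are membrane tyrosine kinases that work in pairs. Egfr binds amphiregulin (Areg), epiregulin (Ereg), heparin-binding EGF (Hbegf), transforming growth factor alpha (Tgfa) and betacellulin (Btc). Erbb3 and Erbb4 bind neuregulins such as Nrg1, Erbb4 also binds several ligands of Egfr, and Erbb2 has no known ligand of its own and serves as the preferred partner of the others. Erbb3 has little kinase activity and signals through its partner. The ligands are made as membrane precursors and are cut free by sheddases such as Adam17. In the mammary gland Areg acts downstream of the oestrogen receptor in duct growth, and Erbb2 is known as a driver of mammary tumours.

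What the ligands have in common is an EGF-like domain held together by 6 cysteines, and the stretch that codes for it is shown for 5 of them because it is the part that meets the receptor. The sequences run 5′ to 3′ from the first to the sixth cysteine codon of the spliced coding sequence (GENCODE M21 on GRCm38), with the 6 cysteine codons in capitals. All 5 stretches join exons, so each spans an intron in the genome.
Areg: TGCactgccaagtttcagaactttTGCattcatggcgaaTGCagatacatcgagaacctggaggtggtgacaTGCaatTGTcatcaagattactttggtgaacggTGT
Ereg: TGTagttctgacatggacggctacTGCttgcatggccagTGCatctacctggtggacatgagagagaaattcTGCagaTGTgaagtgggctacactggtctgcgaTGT
Tgfa: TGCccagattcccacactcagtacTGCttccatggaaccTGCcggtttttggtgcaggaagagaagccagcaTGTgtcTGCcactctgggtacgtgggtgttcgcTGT
Btc: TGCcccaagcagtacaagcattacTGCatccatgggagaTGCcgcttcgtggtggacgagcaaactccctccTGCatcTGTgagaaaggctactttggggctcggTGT
Nrg1: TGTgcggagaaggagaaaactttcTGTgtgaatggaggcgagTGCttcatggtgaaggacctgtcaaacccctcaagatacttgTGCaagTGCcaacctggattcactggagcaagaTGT

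Areg, Ereg, Tgfa and Btc share 1 spacing, with 7, 4, 10, 1 and 8 codons between successive cysteines over 108 bases. Nrg1 differs in the second gap and the one after it, which hold 5 and 13 codons, so its stretch is 120 bases long. The search allowed 7 codons in the first gap, 4 or 5 in the second, 10 to 13 in the third, then 1 and 8. Over 21866 protein-coding genes, 59 (0.27%) held such a stretch. All 6 ligands described here were among them, as were the 5 other ligands of the family (Egf, Epgn, Nrg2, Nrg3 and Nrg4), and none of the 4 receptors was. The ranges searched cover the spacings of the 5 ligands shown, so the match of these 5 follows from the search itself.

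The 14 biological replicates held 34892461 to 328493417 counts. Levels are given as CPM, the counts of a gene in every 1000000 counts of the effective library size. That size is the total count corrected for composition. A difference was called where the adjusted p of edgeR over the 21237 genes tested was under 0.05. Esrp2-as itself held 2.96 and 2.42 CPM in the M6 control replicates and 0.527 and 0.851 CPM in the knockdown replicates, a fall with an adjusted p of 0.363 that was not called. It held 0.731 to 1.25 CPM in the M27H4 controls and 15.9 to 65.8 in the overexpression replicates, and in 3T3-L1 0.25 and 0.355 CPM against 45.8 and 35.5. Esrp2 held 53.9 to 65.8 CPM in M6, 9.31 to 15.9 in M27H4 and 0.291 to 0.356 in 3T3-L1. The line labels were set against 10 epithelial markers, whose summed level was 4111 to 6643 CPM in M6, 154 to 295 in M27H4 and 24.7 to 31.5 in 3T3-L1. For 10 fibroblast and preadipocyte markers the order of the sums was the opposite, with 277 to 542, 1839 to 2220 and 7375 to 9085 CPM. A few abundant genes can set such a sum. In M27H4 against M6, 5 of these 10 were called higher and 0 lower, and 5 had separate ranges. M27H4, although labelled as a mammary tumour line, was thus low in epithelial markers, while only part of the fibroblast list separated it from M6. The replicates numbered 1 of M6 and M27H4, in control and treated groups alike, stood apart in immediate early genes. Fos was 76.4 and 213 CPM in these M6 replicates against 6.84 and 14.5 in the others, and 162 and 166 in these M27H4 replicates against 19.6 to 28.6.

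Among the receptors, Erbb3 showed the widest range over the lines and Erbb2 the narrowest of those detected. Egfr and Erbb3 were highest in M6, and Erbb4 had no count in any of the 21 columns deposited. The plot of levels by replicate shows all 9 detected genes on log axes.

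**Figure D1:**
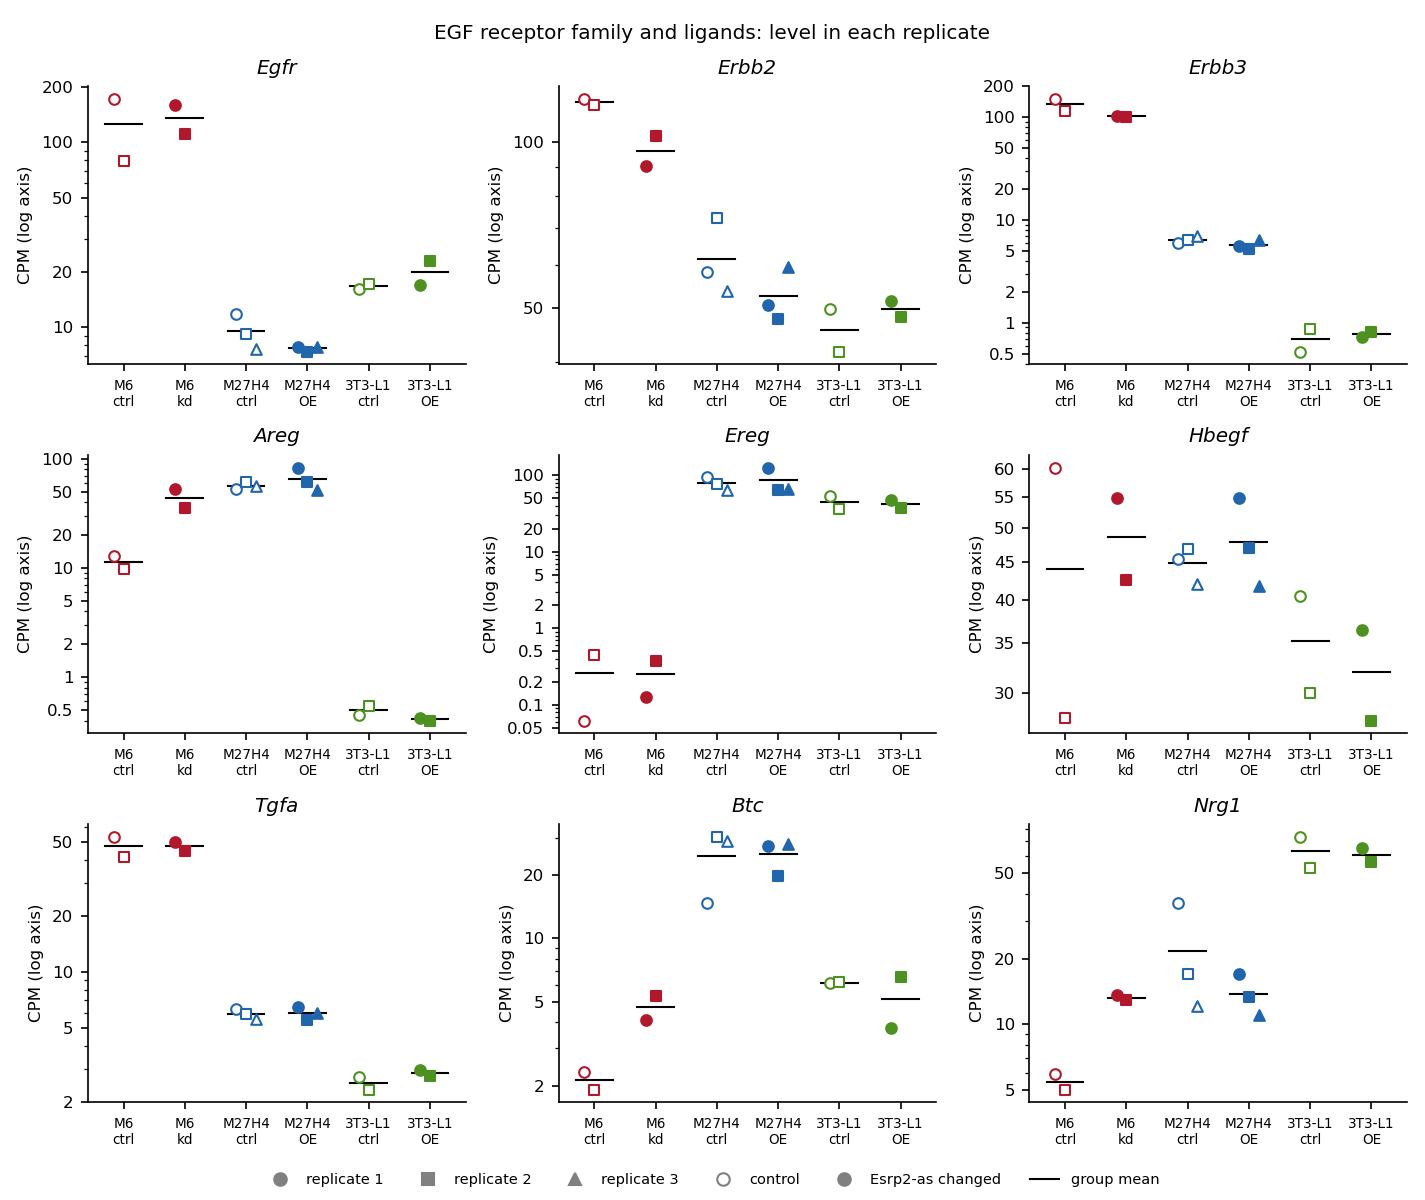
Level of each detected gene in the 14 replicates, as CPM on a log axis whose range differs between panels. Open symbols are controls, filled symbols are the knockdown (kd) or overexpression (OE) replicates, the shape gives the replicate number and the black bar is the group mean. Erbb3 and Tgfa fall from M6 to M27H4 to 3T3-L1, Ereg is near 0 in M6 alone, and Areg rises from 9.86 and 12.7 CPM to 35.1 and 52.2 in the M6 knockdown.

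Egfr (chromosome 11, 16752203 to 16918158, plus strand) held 172.7 and 79.6 CPM in the M6 controls, 11.8, 9.13 and 7.58 in the M27H4 controls, and 16.2 and 17.1 in the 3T3-L1 controls. M6 stood above both other lines with no overlap, although its replicates differed by more than those of the other lines. In M27H4 Egfr was 13.3-fold lower than in M6, a log2 difference of -3.73 (SE 0.3, adjusted p 9.51e-07 by edgeR). In 3T3-L1 it was 7.58-fold lower than in M6 (log2 -2.92, SE 0.34, adjusted p 1.69e-05). 3T3-L1 was 1.75-fold above M27H4, with an adjusted p of 0.0422 that was not stable. It was 0.0577 with RLE factors and 0.0568 without scaling factors, and it was above 0.05 without replicate 1 or 2 of the 3T3-L1 controls, replicate 2 or 3 of the M27H4 controls, or replicate 2 or 3 of the M27H4 overexpression group (highest 0.174). The M6 control replicate with the high Egfr level was also the one with the highest Fos level, at 213 CPM. Without that replicate the log2 difference from M6 was -3.07 in M27H4 and -2.25 in 3T3-L1, and without M6 control replicate 2 it was -4.17 and -3.36.

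Erbb2 (chromosome 11, 98412470 to 98437716, plus strand) was at 119.9 and 117 CPM in the M6 controls, 58.1, 72.7 and 53.6 in M27H4 and 49.8 and 41.7 in 3T3-L1. It was 1.93-fold lower in M27H4 than in M6 (log2 -0.95, SE 0.17, adjusted p 0.000862) and 2.59-fold lower in 3T3-L1 (log2 -1.37, SE 0.2, adjusted p 8.95e-05). Between 3T3-L1 and M27H4 the log2 difference was -0.43 with a 95% interval from -0.81 to -0.04 and an adjusted p of 0.0766, which was not called. The ranges of these last groups did not overlap, so the order was M6 first, then M27H4 and 3T3-L1 as neighbours that the test did not separate.

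Erbb3 (chromosome 10, 128567523 to 128589652, minus strand) held 151.4 and 115.1 CPM in the M6 controls, 5.96, 6.39 and 6.93 in M27H4 and 0.523 and 0.872 in 3T3-L1. The 3 lines did not overlap. It was 20.7-fold lower in M27H4 than in M6 (log2 -4.37, SE 0.22, adjusted p 3.09e-08) and 9.3-fold lower in 3T3-L1 than in M27H4 (log2 -3.22, SE 0.25, adjusted p 4.83e-07). In bulk RNA like this, fewer cells with Erbb3 and less Erbb3 RNA in each cell cannot be told apart.

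The low Erbb3 values were set beside the columns that make up the replicates, whose names carry a code of the form LR-20281. Each 3T3-L1 column shares its code with an M6 column, and in those columns Erbb3 stood at 0.426 to 0.829% of its M6 level with the same code. The 10 epithelial markers had medians of 0.323 to 0.589% there, and single markers ran from 0.232 to 1.78%. In every 3T3-L1 column Erbb3 lay above the median of the markers and within their range. The part of reads from other libraries in these values was not tested. M27H4 replicate 1 had columns with code LR-20284, which no M6 column carries, and there Epcam, which encodes an epithelial adhesion protein, held 0.0496 and 0.143 CPM of the column total, against 4.54 to 10.4 in the other M27H4 columns. Erbb3 in the same 2 columns was 6.07 and 5.76 CPM, within the 4.85 to 6.66 of the others.

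**Figure D2:**
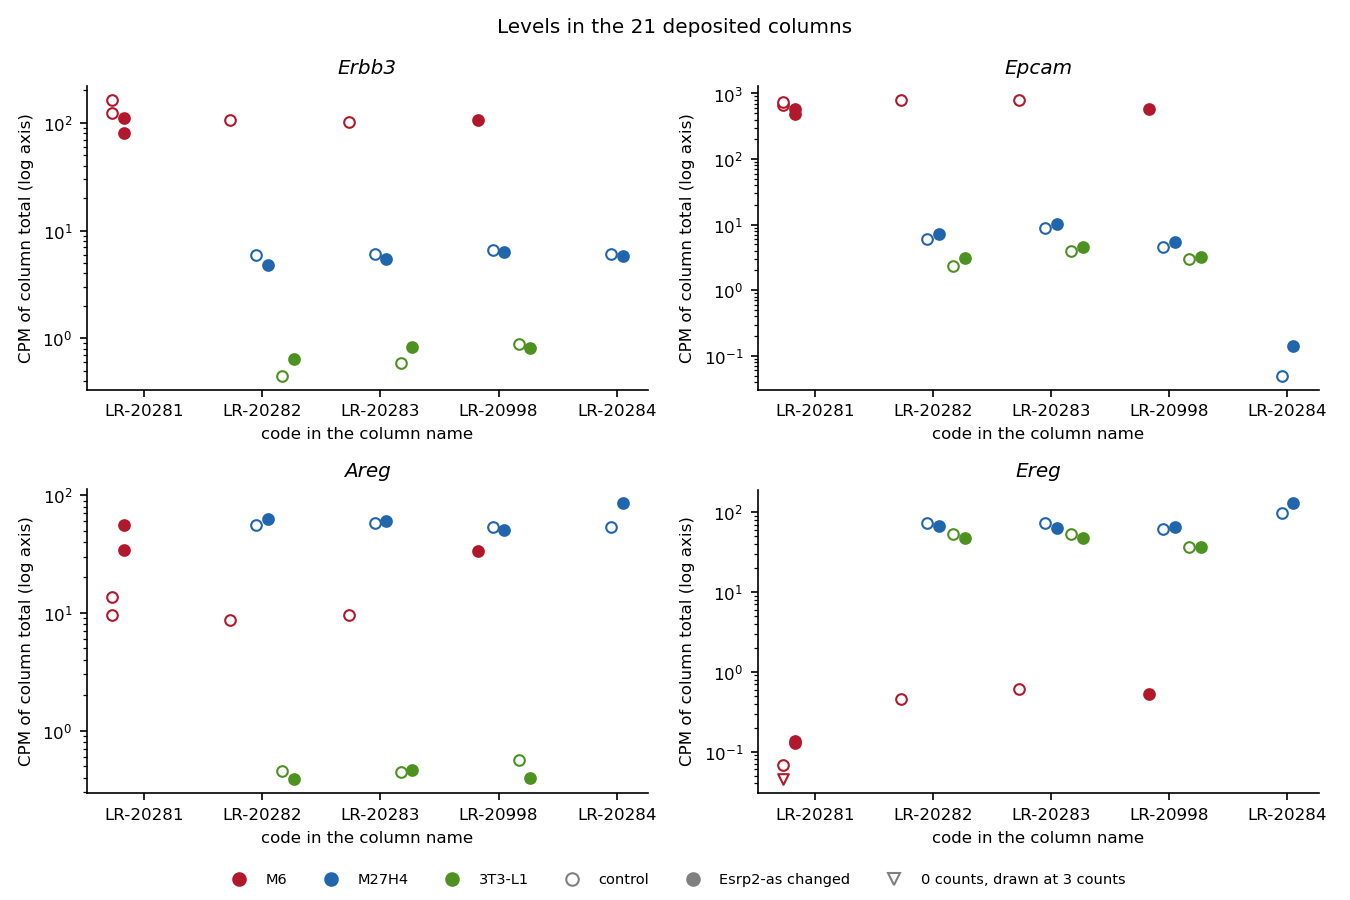
Levels in the 21 deposited columns, as CPM of the column total on a log axis, arranged by the LR code in the column name and coloured by line. Open symbols are controls, filled symbols are knockdown or overexpression, and a triangle marks 0 counts drawn at 3 counts. Epcam in M27H4 drops at LR-20284 while Erbb3 does not, and Ereg in M6 is lowest at LR-20281.

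Erbb4 (chromosome 1, 68032186 to 69108059, minus strand) could not be tested. A count of 0 in the deepest replicate, M6 control 2, allows a level of up to 0.00973 CPM by the limit of 3 counts, and such limits cover counting error only. Of the 4 receptors, then, 3 were detected and called in both comparisons with M6.

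Levels of different genes were compared per kilobase, over all annotated exons of each gene. On that scale the receptors summed to 48.6 and 63.4 CPM per kb in the M6 controls, 12.1 to 15.8 in the M27H4 controls and 9.66 and 11.1 in the 3T3-L1 controls. Erbb2 made up 36.3 and 46.2% of that sum in M6, Erbb3 39.4 and 39.7% and Egfr 24 and 14.5%. In M27H4 Erbb2 made up 84.5 to 88.2% and in 3T3-L1 82.9 and 86.3%. The summed receptor level was thus lower outside M6, and Erbb2 took most of what was there. With each transcript's counts divided by its own length instead, an alternative chosen after seeing the data, the sums were 54.2 and 72.2 in M6, 13.3 to 17.3 in M27H4 and 11.5 and 13.2 in 3T3-L1, and Erbb2 took 33.2 and 44.7%, 80.7 to 85.3% and 74.4 and 79%.

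**Figure D3:**
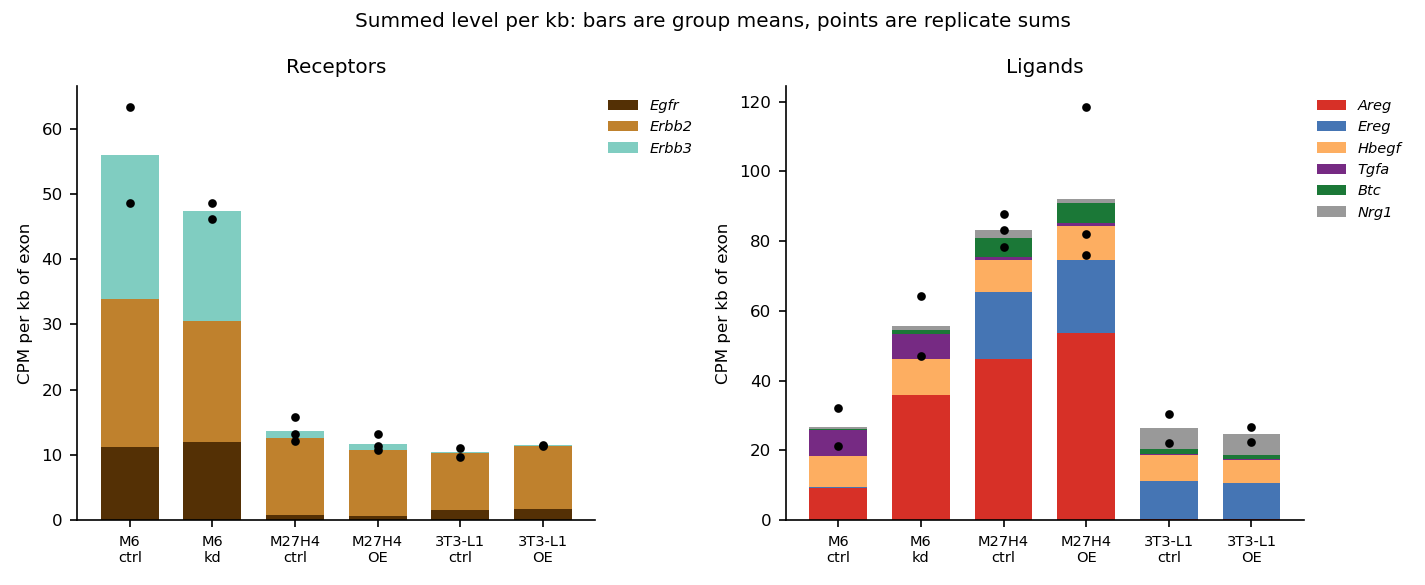
Summed level of the receptors (left) and ligands (right) per kilobase, over all annotated exons of each gene. Bars are stacked group means in CPM per kb and black points are the sums in single replicates, and Erbb4, at 0, is not drawn. M6 has the highest receptor sum, M27H4 the highest ligand sum, and Areg takes 51.7 to 58.5% of the ligand sum in the M27H4 controls but 1.22 and 2.04% in the 3T3-L1 controls.

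The ligands split the lines differently from the receptors. The control mean was above 10 CPM for Areg, Hbegf and Tgfa in M6, for Areg, Ereg, Hbegf, Btc and Nrg1 in M27H4, and for Ereg, Hbegf and Nrg1 in 3T3-L1. Summed per kilobase, the 6 ligands reached 21.2 and 32.2 CPM per kb in the M6 controls, 78.4 to 87.6 in M27H4 and 22.2 and 30.5 in 3T3-L1, so M27H4 combined the highest ligand sum with a low receptor sum. These values depend on the length used. By transcript length the sums were 32.3 and 50.7, 94.7 to 107 and 44.9 and 60.3 CPM per kb, so M27H4 stayed highest. In the 3T3-L1 controls Ereg had the larger share by exon length (a mean of 40.8%, with Nrg1 at 23.1%), but Nrg1 did by transcript length (45.3%, with Ereg at 20.4%).

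Areg (chromosome 5, 91139599 to 91148432, plus strand) held 12.7 and 9.86 CPM in the M6 controls, 52.3, 60.7 and 55.7 in M27H4 and 0.45 and 0.549 in 3T3-L1. The lines did not overlap. It was 4.99-fold higher in M27H4 than in M6 (log2 2.32, SE 0.25, adjusted p 1.06e-05) and 113-fold lower in 3T3-L1 than in M27H4 (log2 -6.82, SE 0.32, adjusted p 1.24e-08). In the 3T3-L1 columns Areg stood at 0.657 to 1.07% of its level in the M27H4 columns with the same code, and no 3T3-L1 column is free of such a partner. The share of reads from other libraries in the 3T3-L1 value, and so in the size of that fold, was not tested.

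Ereg (chromosome 5, 91074622 to 91093646, plus strand) was nearly absent from M6, with 3 counts (0.0621 CPM) and 140 counts (0.454 CPM) in the control replicates. It held 95.1, 77.3 and 63.8 CPM in the M27H4 controls and 53.2 and 36 in the 3T3-L1 controls. Its log2 difference from M6 was 7.96 (SE 0.71, adjusted p 4.85e-06) in M27H4 and 7.14 (SE 0.69, adjusted p 7.43e-06) in 3T3-L1. The 4 M6 columns with code LR-20281, which no sample of another line carries, held 0 to 0.136 CPM of the column total, and the other 3 held 0.454 to 0.607. Those 3 values were 0.894 to 1.43% of the Ereg level in 3T3-L1 columns with the same code, where 3 collagen genes that mark fibroblasts stood at 0.329 to 0.887%. With M6 taken from LR-20281 alone the differences were 11.5 and 10.7, so the direction held and the size did not. Without M6 control replicate 2 they were 10.3 and 9.48. Between 3T3-L1 and M27H4 the log2 difference was -0.82, with a 95% interval from -1.88 to 0.24 and an adjusted p of 0.214. Among fits without a replicate block, it was called by limma voom (adjusted p 0.046), in a fit of the 2 control groups alone (0.0302) and without the replicates numbered 1 (0.0408).

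Hbegf (chromosome 18, 36504927 to 36515805, minus strand) was the ligand that least separated the lines. It held 60.2 and 27.8 CPM in the M6 controls, 45.4, 46.9 and 42.1 in M27H4 and 40.6 and 30 in 3T3-L1. The M6 replicates lay on both sides of every other control, while the M27H4 and 3T3-L1 controls did not overlap. The log2 differences were 0.03 (95% interval -0.57 to 0.63) for M27H4 against M6, -0.32 (-0.97 to 0.34) for 3T3-L1 against M6 and -0.34 (-0.95 to 0.26) for 3T3-L1 against M27H4. The sign against M6 turned with 1 library: without M6 control replicate 1, 3T3-L1 stood 0.36 above M6 on the log2 scale, and without M6 control replicate 2 it stood at -0.75 with an adjusted p of 0.0383.

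Tgfa (chromosome 6, 86195223 to 86275719, plus strand) followed the order of Erbb3. It held 53.1 and 41.3 CPM in the M6 controls, 6.29, 5.94 and 5.53 in M27H4 and 2.71 and 2.32 in 3T3-L1, with no overlap. It was 7.98-fold lower in M27H4 than in M6 (log2 -2.996, SE 0.18, adjusted p 1.33e-07) and 2.35-fold lower in 3T3-L1 than in M27H4 (log2 -1.23, SE 0.19, adjusted p 0.000205).

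Btc, a ligand of both Egfr and Erbb4 (chromosome 5, 91357261 to 91402994, minus strand) held 2.32 and 1.91 CPM in the M6 controls, 14.8, 30.4 and 28.8 in M27H4 and 6.14 and 6.17 in 3T3-L1. M6 was lowest and M27H4 highest, with M27H4 replicate 1 below the other M27H4 controls. The log2 difference was 3.55 (SE 0.38, adjusted p 9.14e-06) for M27H4 against M6, 1.55 (SE 0.36, adjusted p 0.00391) for 3T3-L1 against M6 and -2.003 (SE 0.34, adjusted p 0.000464) for 3T3-L1 against M27H4. Estimates for Btc were unsteady between columns of the same replicate. M27H4 overexpression replicate 2 gave 9.77 and 28.8 CPM of the column total in its 2 columns, and 3T3-L1 overexpression replicate 1 gave 2.05 and 5.34.

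Nrg1 (chromosome 8, 31814551 to 32884029, minus strand) rose in the reverse order to Tgfa, from 5.9 and 5 CPM in the M6 controls to 36.1, 17 and 12.1 in M27H4 and 73.4 and 52.7 in 3T3-L1. The lines did not overlap, and M27H4 replicate 1 stood above its group. Against M6 the log2 difference was 1.997 (SE 0.39, adjusted p 0.00139) in M27H4 and 3.54 (SE 0.43, adjusted p 2.49e-05) in 3T3-L1. 3T3-L1 was 2.91-fold above M27H4 (log2 1.54, SE 0.35, adjusted p 0.00379), and a fit of these 2 groups alone gave an adjusted p of 0.0544. Nrg1 was thus highest in the line where Erbb3, its receptor, was lowest.

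Counted over the 9 members tested, M27H4 against M6 had 4 higher (Areg, Ereg, Btc and Nrg1) and 4 lower (Egfr, Erbb2, Erbb3 and Tgfa), where 15.2% of all genes were called higher and 15% lower, 30.2% in all. Ranges of the groups were separate for 8 of the 9, as for 47.7% of all genes. 3T3-L1 against M6 had 3 higher (Ereg, Btc and Nrg1) and 5 lower (Egfr, Erbb2, Erbb3, Areg and Tgfa), against 20.5% and 18.9% of all genes, 39.4% in all, and 8 had separate ranges against 67.6%. 3T3-L1 against M27H4 had 2 higher (Egfr and Nrg1) and 4 lower (Erbb3, Areg, Tgfa and Btc), against 18.9% and 17.8%, 36.6% in all, and 9 had separate ranges against 60.6%. The median log2 difference of the members was 0.03, -1.37 and -0.82 in these comparisons, beside 0.02, 0.05 and 0.02 over all genes tested. The 3 comparisons share their control samples, so they are not independent of each other or of the comparisons within lines.

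**Figure D4:**
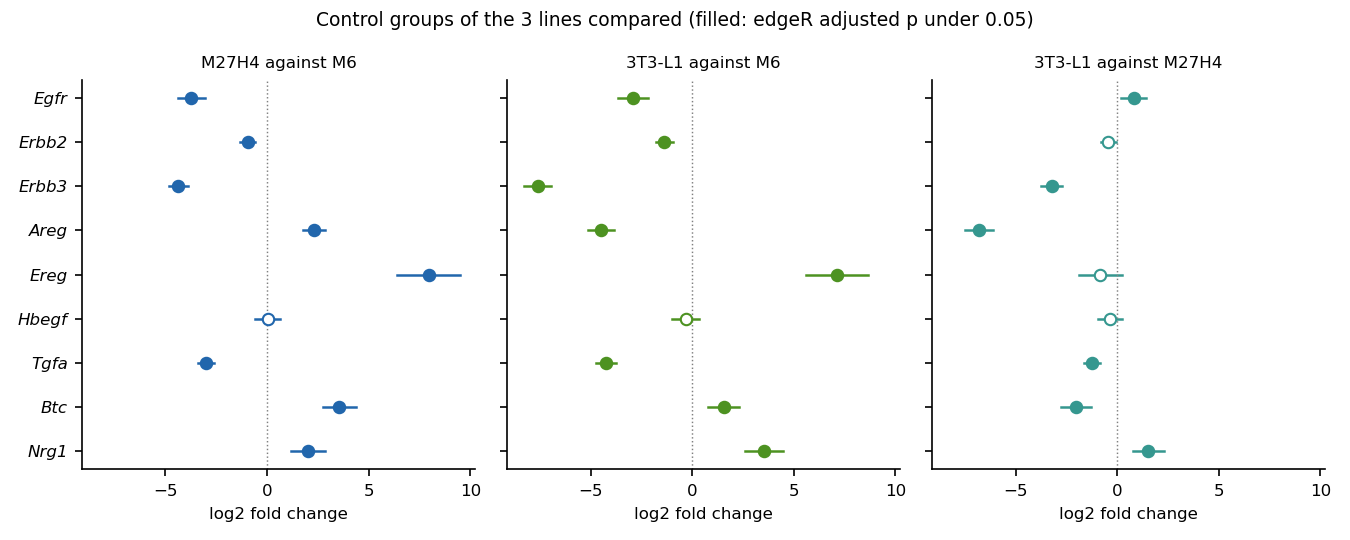
Log2 fold change of each member tested between the control groups of the 3 lines, with 95% intervals from edgeR. Filled points have an adjusted p under 0.05 and the dotted line marks no difference. Receptors and Tgfa lie left of the line in both comparisons with M6, Ereg, Btc and Nrg1 lie right of it, and Areg lies right in M27H4 (2.32) and left in 3T3-L1 (-4.50).

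Areg, Ereg and Btc lie beside each other on chromosome 5 together with Epgn, a further ligand of Egfr, yet their levels did not follow a common order. Epgn, Ereg and Areg are read from the plus strand and Btc from the minus strand, and from the start of Epgn to the end of Btc the cluster covers 375.5 kb. Ereg and Areg are 45.95 kb apart and Areg and Btc 208.8 kb. In M6 controls Areg (11.3 CPM) stood above Btc (2.11) while Ereg was at 0.258. In 3T3-L1 controls Ereg (44.6) stood far above Areg (0.5), and in M27H4 controls they held 56.2, 78.7 and 24.7 CPM for Areg, Ereg and Btc. Epgn held 0.599, 1.25 and 0.0622 CPM in the controls of M6, M27H4 and 3T3-L1.

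The bases before the annotated starts of Areg and Btc are shown because these neighbours, unlike Ereg, had an entry in the RefSeq promoter table (GRCm38.p6) and differed in their order over the lines. Promoters of 6 of the 10 members were matched. Each sequence holds the 250 bases before the start, 5′ to 3′ on the gene's own strand, from chr5:91139349-91139598 (plus strand) for Areg and chr5:91402995-91403244 (minus strand) for Btc. Capitals mark matches to 4 motifs searched on both strands. These were TGACGTCA (the cAMP response element) and TGANTCA, which the AP-1 factors Fos and Jun bind. The others were GGGCGG, known as the GC box, and, as the TATA box, the letters TATAAA. The matches do not overlap each other.
Areg: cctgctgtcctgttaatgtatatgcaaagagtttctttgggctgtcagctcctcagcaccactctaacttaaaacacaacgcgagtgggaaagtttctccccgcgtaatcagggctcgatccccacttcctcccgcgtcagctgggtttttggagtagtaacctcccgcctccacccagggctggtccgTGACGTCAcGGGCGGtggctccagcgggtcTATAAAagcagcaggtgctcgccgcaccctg
Btc: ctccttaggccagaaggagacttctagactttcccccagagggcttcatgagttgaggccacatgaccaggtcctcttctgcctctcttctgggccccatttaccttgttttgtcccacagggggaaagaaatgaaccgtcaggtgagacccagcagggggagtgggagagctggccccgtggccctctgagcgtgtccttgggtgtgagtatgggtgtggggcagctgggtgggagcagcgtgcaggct

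In the Areg window the TGACGTCA begins 61 bases before the start, the GGGCGG 52 bases and the TATAAA 31 bases before it, at positions -61, -52 and -31. Over 32851 promoters of 300 bases, 1.79% held TGACGTCA, 35.7% GGGCGG, 13.6% TATAAA and 7.81% TGANTCA. A further GGGCGG on the opposite strand lies 38 bases past the start of Areg. None of these motifs was found in the Btc window. Of the 300 bases around the start, which run 50 bases past it, 21 CpG were counted for Areg and 5 for Btc, with a median of 7 over all promoters. A match describes letters only.

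Of 85 other genes of the pathway, tested on 6 lists, 37 (43.5%) were called in M27H4 against M6, where 30.2% of all genes were. In 3T3-L1 against M6 35 were called (41.2%, against 39.4% of all genes) and in 3T3-L1 against M27H4 37 (43.5%, against 36.6%). The counts of each list that follow are to be read beside 15.2% of all genes higher and 15% lower in M27H4 against M6, and 20.5% and 18.9% in 3T3-L1 against M6. Among the 4 other ligands tested, M27H4 held more Nrg4 (1.72 against 0.00811 CPM, adjusted p 2.53e-06) and more Nrg2 (3.78 against 0.00811 CPM, adjusted p 6.85e-05) than M6. Of 10 sheddases and processing proteins, 2 were higher and 4 lower in M27H4 than in M6. Adam12, which cuts Hbegf among other precursors, was at 5.13 CPM in M27H4 against 146 in M6 (log2 -4.82, SE 0.36, adjusted p 4.32e-07). Rhbdf1, which helps Adam17 to mature, was at 43.5 CPM in M27H4 against 134.5, and Adam9 at 462 against 227. In 3T3-L1 against M6, 1 of these 10 was higher and 4 lower, led by Adam12 (5.23 CPM in 3T3-L1), Rhbdl2 (0.247 against 8.92) and Adam19 (21.5 against 0.0454). For the other ligands that count was 1 and 1, with Egf at 2.37 against 0.736 CPM and Epgn at 0.0622 against 0.599.

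Of 7 membrane partners tested, 1 was higher and 3 lower in M27H4 than in M6. Lrig3 was at 65.7 CPM against 8.5, and Itgb4, an integrin chain that associates with Erbb2, at 23.4 against 88.1. In 3T3-L1 against M6 the count was 1 and 4, with Itgb4 at 0.529 CPM (log2 -7.41, SE 0.51, adjusted p 1.46e-07). Of 29 adaptors and signal relay genes, 5 were higher and 7 lower in M27H4 than in M6, and 1 and 12 in 3T3-L1 than in M6. Grb7, an adaptor that binds Erbb2 and lies close to it on the chromosome, held 18.1 CPM in M6, 0.46 in M27H4 and 0.108 in 3T3-L1. Nras was at 2242 CPM in the M6 controls, 111 in M27H4 and 164 in 3T3-L1, a log2 difference of -4.34 (SE 0.26, adjusted p 1.22e-07) between M27H4 and M6.

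Of 20 feedback inhibitors, 4 were higher and 6 lower in M27H4 than in M6, and 2 and 6 in 3T3-L1 than in M6. Spry1 held 4.92 CPM in M6, 38.9 in M27H4 and 30.8 in 3T3-L1. Dusp4, a phosphatase that acts on ERK, held 219, 16.6 and 22.6 CPM, and Cblc, a ubiquitin ligase for Egfr, 13.9, 0.245 and 0.0815. Of 15 ERK response genes, 3 were higher in M27H4 than in M6 and none was lower, with Ccnd1 at 714 against 264 CPM (log2 1.44, SE 0.34, adjusted p 0.00532), Fosl1 at 11.6 against 3.43 and Etv5 at 41.9 against 16.5. In 3T3-L1 against M6, 2 were higher and none lower, Plaur (40.6 against 15.4 CPM) and Ccnd1 (577 against 264). Several genes of these lists are the immediate early genes that stood high in the replicates numbered 1. Without those replicates of M6 and M27H4, 45 list genes were called in 3T3-L1 against M27H4, against 37 with them. Over all genes the calls in that comparison also rose, from 7777 to 9017. Each M6 group then held 1 replicate, so the calls in the comparisons with M6 were not set side by side.

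The same lists were counted for 3T3-L1 against M27H4, where 18.9% of all genes were higher and 17.8% lower. Of the other ligands 0 were higher and 3 lower (Nrg4, Nrg2 and Epgn), and of the sheddases and processing proteins 3 were higher and 3 lower, with Rhbdl2 at 0.247 against 32.3 CPM and Adam19 at 21.5 against 0.232. Of the membrane partners 0 were higher and 3 lower, among them Cd9, a tetraspanin, at 188 against 462 CPM. Of the adaptors 2 were higher and 10 lower, with Sos2, which activates Ras, at 8.42 against 30.3 CPM and Src at 97.1 against 43.7. Of the feedback inhibitors 2 were higher and 7 lower, with Dusp6 at 27.5 against 82 CPM, and of the ERK response genes 1 was higher and 3 lower, with Etv5 at 9.28 against 41.9 CPM (log2 -2.17, SE 0.41, adjusted p 0.000944). The list medians ran from -4.76 for the other ligands to -0.22 for the sheddases, beside 0.02 over all genes.

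Within M6, the knockdown of Esrp2-as went with a higher Areg level and with no other called member. Areg rose 3.87-fold, from 12.7 and 9.86 CPM in the controls to 52.2 and 35.1 in the knockdown replicates (11.3 ± 2.03 against 43.6 ± 12.1, mean ± SD, n = 2 each). The groups did not overlap. The log2 change was 1.95 (SE 0.26, 95% interval 1.39 to 2.51), with an adjusted p of 0.0116 by edgeR. This was 1 of 29 genes called over the whole table (0.137%), of which 26 rose (0.122%) and 3 fell (0.0141%). As CPM of the column total, the 3 knockdown columns held 56, 34.2 and 33.3, and the 4 control columns 13.8, 9.62, 8.7 and 9.56. With M6 taken from LR-20281 alone, where both groups have 2 columns, the change was 1.97 (adjusted p 0.00979).

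The size of the Areg change was steadier than its call. In a fit of the 4 M6 replicates alone the log2 change was 1.98, with an adjusted p of 0.391 by edgeR. It was 2.23 without M6 control replicate 1, 1.65 without knockdown replicate 1 and 1.84 without the replicates numbered 1 of M6 and M27H4. Areg was not called in these fits either. They left 1 replicate in an M6 group, or in both, so their p-values are not given. The replicates numbered 1, high in Fos, also had the higher Areg level in each M6 group, and without them the change was nearly as large. After the knockdown Areg took 61.4 and 66.9% of the ligand sum per kilobase, from 32.5 and 38.2% in the controls, and the sum itself went from 21.2 and 32.2 to 47 and 64.2 CPM per kb. By transcript length Areg took 45.1 and 51.2% after the knockdown and 20.7 and 25.1% in the controls, and the sum went from 32.3 and 50.7 to 64 and 83.9 CPM per kb.

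The 2 other ligands with the largest changes in M6 did not pass the test without a replicate block. Nrg1 went from 5.9 and 5 CPM to 13.6 and 12.9, a log2 change of 1.29 (SE 0.4, 95% interval 0.42 to 2.15) with an adjusted p of 0.444. Btc held 2.32 and 1.91 CPM against 4.07 and 5.33, a log2 change of 1.16 (SE 0.36, 95% interval 0.39 to 1.94) with an adjusted p of 0.439. Neither gene's groups overlapped. For Hbegf the change was 0.15 (95% interval -0.51 to 0.80), for Tgfa 0.00 (-0.43 to 0.43) and for Ereg -0.15 (-1.52 to 1.22), with overlapping groups. The Ereg value rests on 3 and 140 counts in the controls and 6 and 67 in the knockdown. Of the 140 and 67, the LR-20281 columns held 0 and 10.

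No receptor passed the test in M6. Egfr was at 159.9 and 111.6 CPM in the knockdown, with a log2 change of 0.11 (95% interval -0.58 to 0.79). Erbb2 went from 119.9 and 117 to 90.4 and 102.6 CPM (log2 -0.30, 95% interval -0.71 to 0.12) and Erbb3 from 151.4 and 115.1 to 103.1 and 100.3 (log2 -0.39, -0.88 to 0.10), with adjusted p values of 0.979 and 0.942. The groups of both did not overlap. In all, 5 of the 9 members tested had separate ranges, 3 higher and 2 lower, where 26.4% of all genes did (12.6% higher and 13.8% lower).

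**Figure D5:**
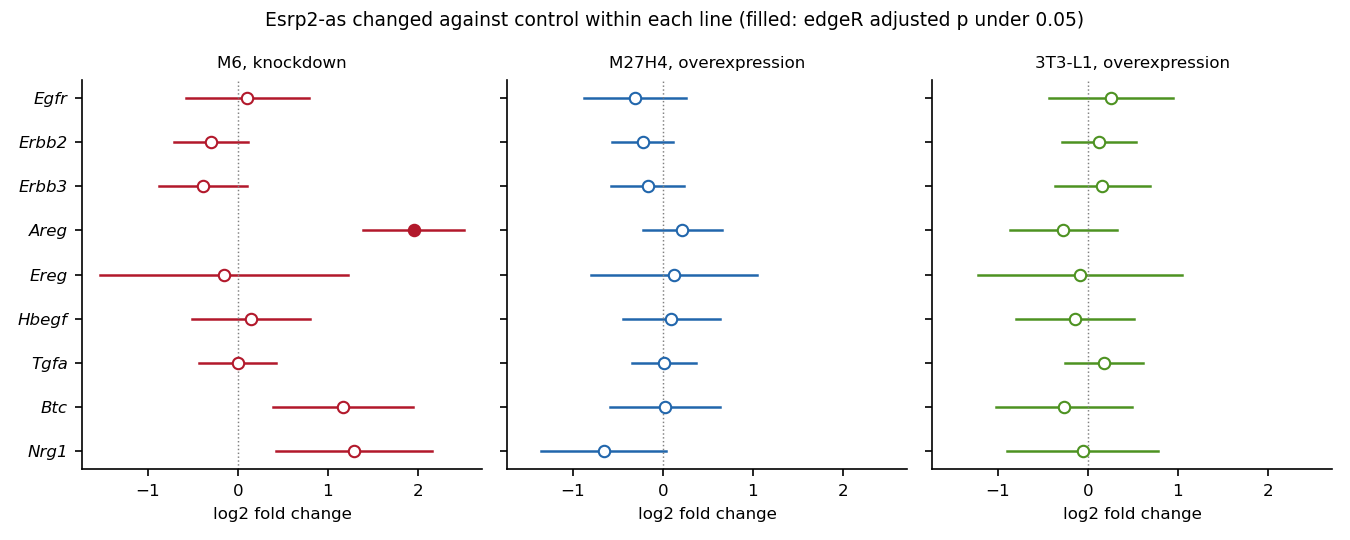
Log2 fold change of each member tested, with 95% intervals from edgeR, for the M6 knockdown and for overexpression in M27H4 and 3T3-L1, each against its own control. Filled points have an adjusted p under 0.05. Areg in M6 (1.95) is the filled point, and the intervals of Nrg1 and Btc in M6 lie above 0 without passing the adjusted threshold.

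In M27H4, no member was called with overexpression of Esrp2-as. By edgeR 0 of 9 members tested were called, beside 2 genes over the whole table (0.00942%). DESeq2 and limma voom also called 0 members. An unadjusted p under 0.05 was found for 0 of the 9, where only 1.69% of all genes had one. With the replicate number as a block, which pairs these samples, 1 gene was called over the whole table and no member. Areg held 82.7, 60.9 and 52.2 CPM against 52.3, 60.7 and 55.7 in the controls, a log2 change of 0.21 with a 95% interval from -0.22 to 0.65. Nrg1 had the largest log2 difference of the members tested, from 36.1, 17 and 12.1 CPM to 17, 13.4 and 11 (log2 -0.66, 95% interval -1.35 to 0.04), and its control replicate 1 alone lay above the overexpression group. Ereg held 125.5, 64.8 and 66.7 CPM, with the high value in replicate 1, as in the controls. None of the 9 had separate ranges, where 5.1% of all genes did.

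In 3T3-L1, overexpression likewise gave 0 called members of 9 by edgeR, DESeq2 and limma voom. EdgeR called 1 gene over the whole table (0.00471%). At an unadjusted p under 0.05 there were 0 members, where only 0.95% of all genes passed. Log2 changes ran from -0.27 for Areg to 0.26 for Egfr. The replicates of Nrg1 were at 65.1 and 56 CPM against 73.4 and 52.7, those of Ereg at 46.8 and 37 against 53.2 and 36, and those of Egfr at 16.9 and 22.9 against 16.2 and 17.1. Areg and Tgfa had separate ranges, 2 of 9 members where 23.2% of all genes did, with Tgfa higher (12.1% of genes) and Areg lower (11.2%). Areg was at 0.423 and 0.399 CPM, near 0 in both groups. The test of the difference between the overexpression effects in 3T3-L1 and M27H4 called 0 of 9 members by edgeR, DESeq2 and limma voom. EdgeR called 1 gene or 0.00471% over the table. No member had an unadjusted p under 0.05, where only 1.51% of all genes did. The difference between effects was 0.60 for Nrg1 (95% interval -0.49 to 1.69) and -0.49 for Areg (-1.23 to 0.26).

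Of the 85 pathway list genes, none was called by edgeR without a replicate block in a comparison within a line. In the M6 knockdown 6 of them (7.06%) had an unadjusted p under 0.05, where 6.27% of all genes did. DESeq2 called 1 (1.18%, near the 1.11% of all genes, 235, that it called), Plaur, a target of ERK signalling that encodes the urokinase receptor. Plaur was at 34 CPM in the knockdown against 15.4 in the controls (log2 1.15, SE 0.33, adjusted p 0.374 by edgeR). Adam8 was at 36.8 against 17.3 CPM (log2 1.09, SE 0.42, adjusted p 0.656), and 9 of the 10 sheddases and processing proteins had a positive change, with a median of 0.22 beside -0.03 over all genes. The overexpression in 3T3-L1 also gave 9 of 10 positive (median 0.19 beside 0 over all genes), and that in M27H4 gave 3 of 10 (median -0.07 beside -0.03). In the M6 knockdown Pik3r1, a regulatory subunit of PI 3-kinase, was at 101 against 165.8 CPM (log2 -0.72, adjusted p 0.686), Muc1 at 1.89 against 2.69 and Spred1 at 141 against 171.5. Median changes in the M6 knockdown were -0.05 for membrane partners, -0.04 for adaptors, 0.01 for feedback inhibitors and 0.17 for ERK response genes.

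In the overexpression comparisons 0 of the 85 had an unadjusted p under 0.05, where only 1.69% of all genes did in M27H4 and 0.95% in 3T3-L1. DESeq2 called 0 of the 85, and 0.028% of all genes in M27H4 and 0.057% in 3T3-L1. Limma voom also called 0 of the 85. The genes with the smallest p were, in M27H4, Egf (1.26 against 1.08 CPM), Adam9 (413 against 462), Muc1 (0.774 against 1.13), Pik3r1 (57 against 72.8), Spred2 (8.47 against 11.3) and Etv5 (29.8 against 41.9). In 3T3-L1 they were Adam9 (265 against 233.5 CPM), Lrig1 (125.6 against 144.7), Ptpn11 (223 against 155), Cbl (14.9 against 11.1), Egr3 (0.555 against 0.264) and Nrg2, which was at 0 against 0.0121. The median change of ERK response genes was -0.16 in M27H4 and 0.07 in 3T3-L1, beside -0.03 and 0 over all genes.

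Erbb3, Areg, Ereg and Hbegf each have 1 transcript in the transcript table. Tgfa-201 held 98.4 to 100% of the Tgfa counts. For Egfr the full-length transcript Egfr-201 held 67.7 to 99.3%. The shorter Egfr-202, of 2943 bp, held 0 to 32.2% over the replicates, and columns of M6 control replicate 2 alone ranged from 5.47 to 25.2%. Erbb2-202, a transcript without an annotated protein, ranged from 0 to 35.8% with replicates of 1 group far apart, for example 0 and 18.5% in the M6 knockdown. Btc-204, a transcript with a retained intron, held 100% of the 112 Btc counts in M6 control replicate 1 and 83.9% in knockdown replicate 1, but 0.945% or less in every other replicate. The estimated split of the M6 Btc counts thus differed between replicates 1 and 2. In the LR-20281 column of control replicate 2, all 117 Btc counts were assigned to Btc-201. Whether the transcripts themselves differed was not tested.

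Nrg1 counts were spread over several coding transcripts, of which Nrg1-206 held 32 to 63.8%. Nrg1-203, named here after its values were seen, held 22.1 to 28.3% in the 3 M27H4 controls. It held 0.163 to 6.4% in the 3 overexpression replicates, without overlap, where 0.163% was 1 of 613 counts. In 3T3-L1 Nrg1-203 held 16.4 and 9.08% in the controls and 5.35 and 9.08% in the overexpression replicates. Of the 5 Nrg1 transcripts with the highest peak shares, it was not alone in separating the M27H4 groups. Nrg1-206 held 34.1 to 42.45% in the controls and 43.9 to 63.8% with overexpression. Others held 4.23 to 9.03% against 0.524 to 2.29%, and 5.93 to 13.4% against 15.7 to 18.4%. The remaining transcript overlapped, at 5.8 to 9.81% against 0 to 15.6%. Such separation was not counted over the transcripts of all genes. These shares are estimates that divide shared reads among transcripts, and they were described without a test.

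The genes whose log2 level most resembled that of each member over the 14 replicates were found by Pearson correlation, as a description. The points share lines and libraries, so differences between the lines set most of each value. For Erbb3 they were Tnk1 (r = 0.996) and Spint1 (0.995), for Tgfa Coro2a and Atp11a (0.996 each), and for Egfr Rgs16 (0.99) and Pcdh1 (0.985). Ereg was most like Prkd1 (0.997) and Ncam1 (0.996), Areg like Ttc39b (0.989) and Fam110c (0.986), Nrg1 like Procr (0.956) and Tsku (0.955), and Btc like Dennd5a (0.973) and Usp47 (0.967). Erbb2 was most like Sh2b2 (0.976) and Rnf10 (0.973). Hbegf, which did not separate the lines, had the lowest best match, Xpo4 (0.929), followed by Thoc2 (0.908).

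Neighbouring annotation could touch a few of these values. Exons of Mien1 on the opposite strand overlap those of Erbb2 by 9 bp, Gm19610 overlaps Ereg by 141 bp, Gm43917 overlaps Tgfa by 118 bp and Gm26578 overlaps Nrg1 by 482 bp of exon. Except for Mien1, which reached 33.2 CPM, these 4 genes stayed at or below 0.883 CPM in every replicate. The strand setting of the counting is not given in the sources used here.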

How the data were processed

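Per the labels' protocols, 21 samples were sequenced from RNA depleted of ribosomal RNA, with SureSelect libraries that keep the strand. Per the submitters' processing notes, cutadapt, HISAT2, StringTie and edgeR were used with mm10/GRCm38, with no versions given. The authors deposited gene and transcript tables of expected counts, whole numbers estimated by StringTie, which were used here, and tables of normalised signal (CPM), which were not. A total of 2 columns there matched no sample.

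Technical replicates, as labelled, were added up, which gave 14 biological replicates in 6 groups. Gene identifiers, coordinates and transcripts were taken from GENCODE M21 on GRCm38, and promoters from RefSeq on GRCm38.p6. Genes were kept with filterByExpr, libraries were scaled with TMM factors, and 1 quasi-likelihood model of edgeR 4.0.16 (R 4.3.3) took in all groups and left 8 residual degrees of freedom. P-values were adjusted by Benjamini and Hochberg over 21237 genes, with 95% intervals from the standard error (SE). Limma 3.58.1 voom and DESeq2 1.42.0 were alternatives. The fit was first tested on simulated counts.

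All 10 members were named in every comparison, with up to 3 called genes of each pathway list, or, in lists without a call, the gene of lowest p, and the 2 genes most like each member. The members and lists were chosen with earlier results of these data known. In M27H4 the 3 same-numbered pairs deviated together from their group means (correlations 0.353, 0.249 and 0.24). Their numbers were therefore taken as pairs in the fit with a replicate block. The main fit held no block, so its M27H4 intervals and p-values do not use the pairing. Same-numbered M27H4 samples also shared their LR codes. Control 2 and overexpression 3, which differ in number, correlated at 0.142.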

Additional observations from a re-analysis of the deposited data

How the results depend on the processing

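For the comparisons within lines and the difference between overexpression effects, 728 of 783 recomputed values kept their direction and side of the threshold. For the comparisons between lines 606 of 639 were counted as kept. Among these, values from LR-20282 and LR-20283 columns alone had no test. They were counted as kept if the direction held and the shift was within the combined SD of the groups. No called value changed direction in any alternative run. The number of replicates, 2 in most groups, limits every interval.

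In the M6 knockdown 29 genes were called, against 235 with DESeq2, 74 with limma voom, 64 with no low count filter, 0 with only the libraries compared, 293 with the replicate block, 8 without the replicates numbered 1 of M6 and M27H4 (an alternative chosen after seeing the data) and 6 (without M6 control replicate 1) to 60 (without M6 control replicate 2) with each replicate left out. Members called there, 1 in the main result, were 0 with only the libraries compared, 2 with the block (Areg, and Nrg1 at 1.29 with an edgeR adjusted p of 0.0235), 0 without the replicates numbered 1, and 0 to 1 with each replicate left out.

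In M27H4 2 genes were called with overexpression, against 6 with DESeq2, 0 with limma voom, 1 with only the libraries compared, 1 with the block, 0 without the replicates numbered 1, and 1 to 2 with each replicate left out. In 3T3-L1 1 gene was called, against 12 with DESeq2, 2 with no filter, 4 with only the libraries compared, 0 with the block, and 0 to 5 with each replicate left out. For the difference between these effects 1 gene was called, against 10 with DESeq2, 0 with limma voom, no scaling factors, only the libraries compared, the block or RLE factors, and 0 to 5 with each replicate left out.

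Several log2 changes near 0 changed sign. Hbegf in 3T3-L1 against M6 was 0.64 with only LR-20282 and LR-20283 columns, 0.35 without the replicates numbered 1, and -0.75 to 0.36 with each replicate left out. Hbegf in M27H4 against M6 was -0.045 with DESeq2, -0.032 with no filter, -0.063 without scaling factors, -0.044 with RLE factors, and -0.41 to 0.69 with each replicate left out. In M27H4 overexpression without the replicates numbered 1, Areg was -0.039, Btc -0.31, Ereg -0.099 and Hbegf -0.0011, and Tgfa was -0.0091 with limma voom and -0.0017 with no filter. In the M6 knockdown Ereg was 2.25 with only the LR-20281 columns, which held 3 and 0 counts in the controls and 6 and 10 in the knockdown. Tgfa there was 0.012 with DESeq2, 0.022 with limma voom, 0.014 with no filter, 0.015 with only the libraries compared, 0.0087 with the block, 0.11 without the replicates numbered 1 and 0.011 with RLE factors.

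With each replicate left out, ranges that crossed 0 were, in 3T3-L1 overexpression, Btc -0.72 to 0.080, Erbb2 -0.011 to 0.26, Erbb3 -0.17 to 0.55, Ereg -0.36 to 0.22, Hbegf -0.36 to 0.092 and Nrg1 -0.29 to 0.20. In M27H4 they were Btc -0.24 to 0.21, Ereg -0.26 to 0.29, Hbegf -0.011 to 0.18 and Tgfa -0.044 to 0.080. In the M6 knockdown they were Egfr -0.34 to 0.85, Ereg -1.33 to 2.19, Hbegf -0.30 to 0.88 and Tgfa -0.16 to 0.26, and for the difference between overexpression effects Btc -0.74 to 0.063, Erbb3 -0.0065 to 0.71 and Ereg -0.48 to 0.16.

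In M6 and 3T3-L1 the same-numbered pairs also deviated together (correlations 0.334 and 0.245). With 2 pairs each, both pairs give the same correlation, so the numbers were not taken as pairs there. Same-numbered 3T3-L1 replicates nevertheless had the same LR codes, as did those of M27H4, and the M6 replicates numbered 1 were both high in Fos. With the replicate block, Erbb2 and Ereg in 3T3-L1 against M27H4 were also called (edgeR adjusted p 0.0497 and 0.00307). In the M6 knockdown the block also called 5 of the 85 pathway list genes (Adam8, Egr2, Fos, Ier3 and Plaur), 5.88% beside 1.38% of all genes. They did not share a direction. Fos was at 76.4 and 6.84 CPM in the knockdown against 213 and 14.5 in the controls. Egr2 was at 4.96 and 0.487 CPM against 24.8 and 1.02, while Adam8 and Plaur were higher in the knockdown. The causes of these changes were not tested.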
